A study of Homo sapiens with 7 samples.

Results

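The anchors described here were the places where ZNF143 chromatin loops ended away from every listed CTCF or RAD21 loop in HEC-1-B cells, a human endometrial cancer cell line. Overlapping loop ends of the wild-type ZNF143 list were merged, and an anchor was taken when it lay more than 5 kb from every anchor of the wild-type CTCF list and of the wild-type RAD21 list. The rule found 3198 of 9711 wild-type ZNF143 anchors, which was 32.9% (Wilson 95% interval 32.0 to 33.9). They are called distant anchors below. The other 6513 are called proximal anchors, of which 4739 lay within 5 kb of both a CTCF and a RAD21 anchor, 1097 of a CTCF anchor only and 677 of a RAD21 anchor only.

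ZNF143 is a zinc-finger protein that binds DNA directly and is known as an activator of transcription at promoters. CTCF is another zinc-finger protein, and RAD21 is a subunit of cohesin, the ring-shaped complex that extrudes chromatin loops until it is held at bound CTCF. HiChIP joins DNA ends that are close in the nucleus, then enriches the joined pieces with an antibody, so a loop in its list is a pair of places seen together on DNA pulled down with one protein. ZNF143 has been found at many CTCF loop ends as well as at promoters, which makes the anchors without a CTCF or RAD21 loop end a separate group to describe.

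The study compared 7 libraries, each the only one of its group. Wild-type cells gave ZNF143, CTCF and RAD21 HiChIP, and cells labelled ZNF143KO, in which ZNF143 was knocked out, gave CTCF and RAD21 HiChIP. Cells labelled CTCF-AID carry CTCF fused to a degron that auxin (IAA) directs to breakdown, and gave ZNF143 HiChIP at 0 h and 24 h of auxin. Both CTCF-AID libraries share the tagged line, so the comparison that isolates auxin is 24 h against 0 h, while 0 h against wild type also crosses a derived line. With 1 library per group no difference had a replicate check, and no p-value is given. The intervals cover counting error alone, and they treat anchors and loops as independent, which neighbouring anchors and loops of 1 anchor are not.

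Each list gave a whole-number count per loop, starting at 2. The wild-type ZNF143 list held 11981 loops with a total count of 49348, the 0 h list 40405 loops with 143119 and the 24 h list 20587 loops with 102962. The wild-type CTCF and RAD21 lists held 19313 and 16788 loops, and the ZNF143KO lists 15597 and 10804. What part of these differences in size lies with depth, calling or the cells was not tested, so shares and ratios at distant anchors are set beside the same for all anchors. Counts of the CTCF-AID lists were mostly even, in 89.5% of loops at 0 h and 86.8% at 24 h, against 69.1% in the wild-type ZNF143 list, and counts of 3 made up 4.94%, 4.23% and 18.6%. The scale of CTCF-AID counts against the other lists is therefore unknown: wild-type counts are printed beside them as values and not compared with them in level, and a count minimum may not mean the same number of read pairs in both. Comparisons of counts are between 24 h and 0 h, whose lists share a layout. The lists hold no measure of protein level or gene expression, so loss of CTCF, loss of ZNF143 and the cell line's identity were not checked here. Being distant refers to listed loop ends only, since a CTCF-bound place without a listed loop would not count.

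Distant anchors lay a median of 28.2 kb from the nearest wild-type CTCF or RAD21 anchor, with quartiles of 12.9 and 71.2 kb and a maximum of 2106 kb. Their median width was 1815 bp, close to 1788 bp for proximal anchors. The 3 distant anchors nearest the 5 kb limit were chr3:98673986-98675834 at 5.01 kb with a ZNF143 count of 2, chr19:46295278-46296737 at 5.01 kb with 38 and chr22:43009542-43012067 at 5.02 kb with 27. Just on the other side were chr19:1259174-1260761 at 5.00 kb with a count of 10, chr1:36021670-36024528 at 4.99 kb with 2 and chr19:4179707-4180903 at 4.99 kb with 76. Weak and strong anchors stood on both sides of the limit.

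Most distant anchors had a single ZNF143 loop and a small number were hubs. In wild-type cells 1920 of 3198 (60.0%) had 1 loop, against 55.8% of proximal anchors, and the median was 1 loop in both. By proximal class that share was 53.9% at CTCF and RAD21, 59.3% at CTCF only and 63.7% at RAD21 only. At the upper end 171 distant anchors (5.35%, interval 4.62 to 6.18) had 10 or more loops, against 188 proximal anchors (2.89%, 2.51 to 3.32). By proximal class it was 2.79% at CTCF and RAD21, 3.83% (2.84 to 5.13) at CTCF only and 2.07% at RAD21 only. The intervals of distant and CTCF-only anchors overlapped. Those 171 held 34.8% of the 8761 loop ends at distant anchors. The mean was 2.74 loops per distant anchor and 2.33 per proximal anchor, a ratio of 1.17 (1.14 to 1.21). That ratio depended on the distance rule and on chromosome 19. With a limit of 20 kb in place of 5 kb it was 0.974 (0.944 to 1.006), and without chromosome 19 it was 1.08 (1.05 to 1.12). The median total count ran the other way, at 3 for distant and 4 for proximal anchors, while the means were 11.3 and 9.59. Anchors at CTCF only and those at RAD21 only also had a median of 3.

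**Figure D1:**
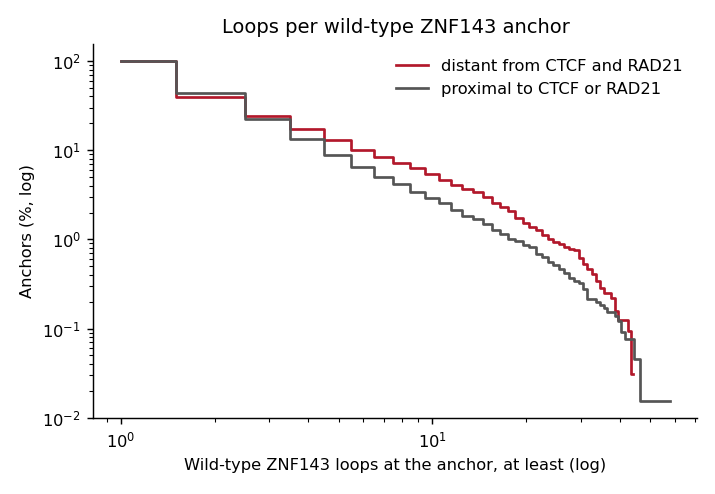
Share of wild-type ZNF143 anchors (log axis, percent) with at least the number of loops on the horizontal axis, for anchors distant from or proximal to CTCF or RAD21. Fewer distant anchors reach 2 loops (40.0% against 44.2%), and more of them reach 10 (5.35% against 2.89%). Proximal anchors at CTCF only and at RAD21 only had a single loop in 59.3% and 63.7%, near the 60.0% of distant anchors.

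Number of loops fell with distance from CTCF and RAD21 over most of the range. The 559 distant anchors at 5 to 10 kb had a mean of 3.35 ZNF143 loops, the 672 at 10 to 20 kb had 3.18 and the 893 at 20 to 50 kb had 2.59. The 500 at 50 to 100 kb had 1.90, the lowest, and the 574 beyond 100 kb had 2.59 again. Distance and number of loops were therefore not ordered throughout.

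Chromosome 19 held 479 distant anchors, 15.0% of all, and distant anchors made up 40.8% of its ZNF143 anchors. Its distant anchors had a mean of 5.61 loops and its proximal anchors 4.63. Across the chromosomes, distant anchors had the higher mean on 20 of 23. The X chromosome had few ZNF143 anchors, 40 distant and 38 proximal, with means of 1.35 and 1.21 loops.

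Distant anchors were joined mostly to proximal anchors, but to each other more often than proximal anchors were joined to them. Of 11981 wild-type ZNF143 loops, 6793 (56.7%) had at least 1 distant anchor. Among these, 1968 (29.0%) joined 2 distant anchors and 4825 (71.0%) joined a distant to a proximal anchor. The proximal partner lay at both CTCF and RAD21 in 3323 loops (48.9% of the 6793), at CTCF only in 981 (14.4%) and at RAD21 only in 521 (7.67%). Followed from the distant anchors, 44.9% of partner ends were distant anchors, against 31.7% when followed from proximal anchors. The difference was 13.2 percentage points (Newcombe 95% interval 11.9 to 14.5). It had the same direction on 22 of 23 chromosomes and was 13.4 points (11.9 to 14.9) without chromosome 19.

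By anchor, 1154 distant anchors (36.1%) had only distant partners, 1198 (37.5%) had only proximal partners and 846 (26.5%) had both. Among the 1278 with 2 or more loops, 846 (66.2%) had both kinds of partner. Only 184 of these (14.4%) were joined to distant anchors alone.

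Loops with a distant anchor were longer. Their median span was 154.0 kb, against 132.9 kb for loops between 2 proximal anchors, a ratio of 1.16 (1.08 to 1.25). Spans of 500 kb or more made up 15.1% of loops between 2 distant anchors, 12.5% of loops with 1 and 9.04% of loops with none. With loops of count 2 left out, the ratio of medians was 1.08 with an interval of 0.975 to 1.21, which includes no difference.

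Loops between distant anchors linked many of them into groups, though fewer than loops between proximal anchors linked. The proximal class is the larger, at 6513 against 3198 anchors. Links within a class can grow with its size, which was not allowed for here. In wild-type cells 2000 distant anchors (62.5%) had a loop to another one, and these fell into 497 linked groups, of which 293 were single pairs. Among proximal anchors 79.4% were linked to another proximal one, in 1191 groups. Groups of 10 or more distant anchors numbered 30 and held 611 anchors (19.1%), against 85 groups with 32.9% of proximal anchors, and 8 of the 30 were on chromosome 19. The largest proximal group held 162 anchors. The largest distant group joined 86 distant anchors through 240 loops over 5.60 Mb of chromosome 19, from 53465627 to 59067823. Of those 86, 79 (91.9%) had a ZNF143 anchor at 0 h of auxin and 71 (82.6%) at 24 h, in a group that stands out by its many loops. Over all distant anchors these shares were 79.1% and 60.0%, and over all ZNF143 anchors 82.4% and 51.1%. The next 2, also on chromosome 19, held 57 and 37 distant anchors, and the fourth held 35 on chromosome 16 between 420063 and 3019543.

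The distant anchor with the highest wild-type ZNF143 count was chr1:156736325-156738000, 14.6 kb from the nearest CTCF anchor and 38.7 kb from the nearest RAD21 anchor. It had 32 loops with a summed count of 558 in wild type, 44 with 1210 at 0 h and 40 with 1232 at 24 h, and none in either ZNF143KO list. Of its 32 wild-type partners, 24 were proximal. Its strongest loop rose from 321 at 0 h to 400 at 24 h, and the median span of its loops went from 174 to 429 kb. Other loops were lost: of its 32 wild-type loops, 25 were found at 0 h and 16 at 24 h. Loops of 500 kb or more at this anchor numbered 1 in wild type, 12 at 0 h and 18 at 24 h.

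The next by count, chr19:58836404-58839454, had a different set of partners, since 30 of its 38 were distant anchors. It lay 5.97 kb from a RAD21 anchor and 12.8 kb from a CTCF anchor. Its summed count was 499 in wild type, 581 at 0 h and 972 at 24 h, over 38, 52 and 48 loops. Of the 48 loops at 24 h, 36 went to distant anchors. The median span was 509 kb at both auxin times.

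**Figure D2:**
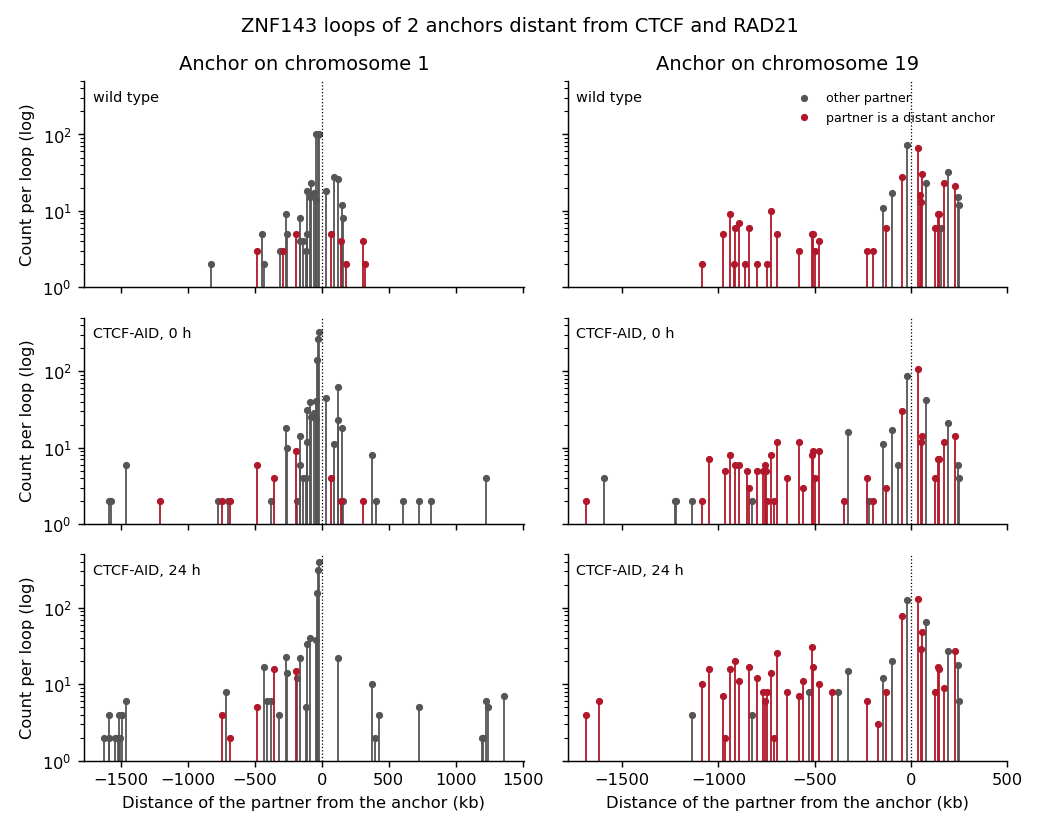
Each stem is a ZNF143 loop of the chromosome 1 anchor (left) or the chromosome 19 anchor (right) with the highest wild-type counts. The horizontal axis gives the partner's distance in kb, the vertical axis the loop's count on a log scale, and colour separates distant anchors from other partners. The highest counts of the chromosome 1 anchor were 321, 262 and 138 at 0 h and 400, 311 and 157 at 24 h. All of these were to nearby partners other than distant anchors. Some of its other nearby loops were not listed at 24 h, such as that at 29.7 kb with 44 at 0 h. The chromosome 19 anchor had 36 of 48 loops to distant anchors at 24 h.

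Among the 10 distant anchors with the highest wild-type counts, 9 had a higher summed count at 24 h than at 0 h. These 10 do not stand for all distant anchors. Of distant anchors found at both times, 943 of 1850 (51.0%) had a higher count at 24 h. That share was 38.4% of all ZNF143 anchors and 30.7% of proximal ones. By proximal class it was 26.3% at CTCF and RAD21, 40.9% at CTCF only and 45.9% at RAD21 only. The anchor chr16:67839297-67841770 had 436 in wild type, 473 at 0 h and 550 at 24 h while its loops fell in number from 46 to 30. The anchor chr19:55627847-55630996 had 362, 665 and 1115, with 67 loops at 0 h and 49 at 24 h. The anchor chr17:38082606-38085226 had 338, 298 and 438. At all 3 fewer loops carried a larger total at 24 h than at 0 h.

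The anchor chr16:2096967-2098926 had 328 in wild type, 256 at 0 h and 397 at 24 h. One of the 10, on chromosome 8, had 305, 661 and 796. The anchor chr19:44616273-44618170 stood farthest from CTCF among these, at 160 kb, and 326 kb from RAD21, with 290, 698 and 933. The exception to the rise was chr16:2204742-2206799, with 277 in wild type, 395 at 0 h and 324 at 24 h.

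The last of the 10, chr19:49222747-49225635, had 43 loops and 309 in wild type, then 140 loops with 1182 at 0 h and 145 with 1718 at 24 h. Its neighbour chr19:49227303-49229014, another distant anchor, lay less than 5 kb away and so matched the same CTCF-AID loops. Counting only loops whose end overlapped the anchor itself gave 775 and 1113 for the first and 407 and 605 for the second, which are again higher at 24 h. In all, 330 distant anchors (10.3%) lay within 10 kb of another one and could share loops in this way.

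The most loops in wild type, 44, were at chr19:56651574-56654677, which had a summed count of 230, then 598 at 0 h and 766 at 24 h. The anchor chr19:51013745-51016257 came 5th by this measure, with 39 loops and 231, then 249 and 302. Of the 5 anchors with the most loops, 4 were on chromosome 19.

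The strongest single loops between distant anchors mostly had higher counts at 24 h as well. The strongest in wild type was on chromosome 8, spanned 25.9 kb and had a count of 80 in wild type, 180 at 0 h and 222 at 24 h. On chromosome 19 the loop from chr19:58836404-58839454 to chr19:58872961-58874613 had 66, 108 and 130. On chromosome 13 the loop from chr13:41706079-41707743 to chr13:41767825-41769692 had 40, 80 and 116. Of the 10 strongest, 9 were listed at 24 h, and all 9 had a higher count there than at 0 h. Over all wild-type loops found at both times, the count was higher at 24 h in 571 of 846 loops with 2 distant ends (67.5%), in 57.6% of all loops and in 49.9% of loops with none. The tenth joined chr16:2204742-2206799 to chr16:2254283-2256418, with 33 in wild type, 64 at 0 h and no loop at 24 h. None of the 10 was in the ZNF143KO CTCF list, and the chromosome 19 loop above was in the ZNF143KO RAD21 list with a count of 2.

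Before auxin, distant anchors were found slightly less often in the tagged line than proximal anchors as a whole, and about as often as those at CTCF only or RAD21 only. A ZNF143 anchor at 0 h lay within 5 kb of 2529 of 3198 distant anchors (79.1%, 77.6 to 80.5), against 82.4% of all wild-type ZNF143 anchors and 84.1% of proximal ones. The difference from proximal anchors was -5.01 points (-6.70 to -3.37). By class, anchors at CTCF and RAD21 were found in 85.9%, those at CTCF only in 79.5% and those at RAD21 only in 78.6%. The difference from all proximal anchors sat among weak anchors. Of distant anchors with a wild-type count of 2, 66.6% were found, against 76.3% of proximal ones, whereas at counts of 10 to 19 the shares were 93.1% and 92.9%. All 141 distant anchors with a count of 50 or more were found, as were 183 of 184 proximal ones (99.5%).

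After 24 h of auxin the order was turned round. A ZNF143 anchor lay at 1920 distant anchors (60.0%, 58.3 to 61.7), against 51.1% of all and 46.7% of proximal anchors, a difference of 13.4 points (11.3 to 15.4) between distant and proximal. Of the 2529 distant anchors found at 0 h, 1850 (73.2%, 71.4 to 74.8) were still found at 24 h, against 60.6% of all and 54.9% of proximal anchors. That difference was 18.3 points (16.1 to 20.4). Proximal anchors at CTCF and RAD21 kept 53.8%, those at CTCF only 60.0% and those at RAD21 only 54.9%. Distant anchors were kept more often on 22 of 23 chromosomes, the exception being X with 54.2% of 24 against 54.5% of 22.

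**Figure D3:**
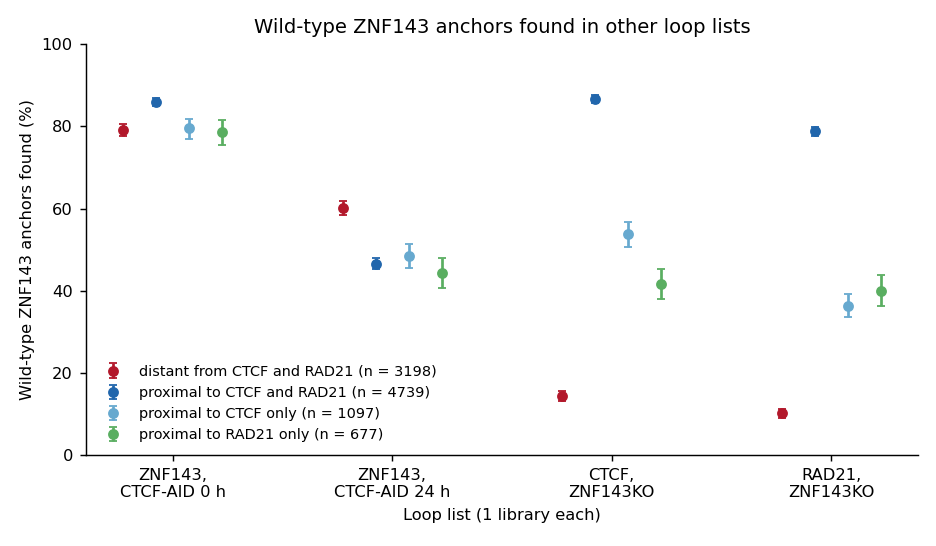
Percent of wild-type ZNF143 anchors found within 5 kb in the 2 CTCF-AID ZNF143 lists and the 2 ZNF143KO lists, by class of anchor, with Wilson 95% intervals. At 0 h distant anchors stood below anchors at CTCF and RAD21 (79.1% against 85.9%), near those at CTCF only (79.5%) and RAD21 only (78.6%). They stood above all 3 proximal classes at 24 h (60.0% against 46.7% of proximal anchors together). Their shares in the ZNF143KO lists, 14.5% and 10.2%, were the lowest. The rule removed anchors near wild-type CTCF and RAD21 loops, so these low shares carry that choice over.

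Anchors with many reads are found more easily, so the shares were compared within ranges of the anchor's own 0 h count. Distant anchors were kept more often in each of 6 ranges. At 0 h counts of 2 and 3, 37.5% of distant and 18.6% of proximal anchors were kept. At 4 to 9 the shares were 59.2% and 29.8%, the widest gap, of 29.4 points (25.0 to 33.7). At 20 to 49 they were 89.9% and 71.9%, and at 100 or more 173 of 174 distant (99.4%) and 94.9% of proximal anchors were kept. The same direction held within ranges of the number of loops at 0 h, with 40.2% against 19.5% for anchors with 1 loop and 82.5% against 63.0% for 5 to 9 loops.

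**Figure D4:**
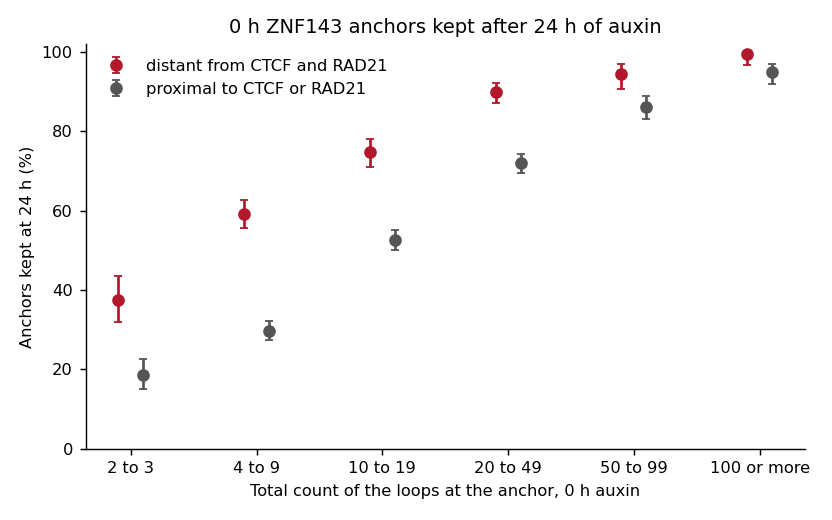
Percent of anchors found at 0 h that were found again at 24 h, against the anchor's summed ZNF143 count at 0 h, with Wilson 95% intervals. The share kept grew with count in both classes and was higher for distant anchors in each range, from 37.5% against 18.6% at the lowest counts to 99.4% against 94.9% at the highest.

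Distance beyond the limit changed the share kept little. The share of 0 h anchors kept at 24 h was 73.9% at 5 to 10 kb from CTCF or RAD21, 74.8% at 10 to 20 kb, 75.1% at 20 to 50 kb, 70.7% at 50 to 100 kb and 69.0% beyond 100 kb. The intervals of neighbouring ranges overlapped. The share found at 0 h at all was more spread, from 85.0% in the nearest to 71.4% in the farthest range. Of all distant anchors, found at 0 h or not, 63.9% in the nearest range were found at 24 h. In the next ranges it was 62.5%, 62.6% and 57.2%. Beyond 100 kb it was 51.9% (47.8 to 56.0), near the 51.1% of all ZNF143 anchors and above the 46.7% of proximal ones.

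The distant anchors found at 0 h lost fewer loops than proximal anchors did. Their mean went from 7.76 loops at 0 h to 6.02 at 24 h, while that of proximal anchors went from 7.81 to 4.12. More loops at 24 h than at 0 h were seen at 554 distant anchors (21.9%, 20.3 to 23.6), against 13.4% of all anchors found at 0 h and 9.53% of proximal ones. The mean summed count went from 34.1 to 36.6 at distant anchors and from 32.4 to 23.5 at proximal ones. Among anchors found at both times, the median ratio of counts, 24 h over 0 h, was 1.03 for distant and 0.740 for proximal anchors. By proximal class it was 0.674 at CTCF and RAD21, 0.917 at CTCF only and 1.00 at RAD21 only. A ratio near 1 was thus shared with anchors at RAD21 only.

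The difference was also seen by loop. CTCF-AID loops were sorted by whether each end lay within 5 kb of a distant anchor, of a wild-type CTCF or RAD21 anchor (proximal), or of neither. About 3% of ends at distant anchors also met the second condition (3.16% at 0 h, 2.95% at 24 h) and were counted with distant anchors. Loops between 2 distant ends numbered 2861 at 0 h and 2826 at 24 h, a ratio of 0.988 (0.937 to 1.04). Loops between a distant and a proximal end went from 9579 to 6667 (0.696, 0.674 to 0.718). Loops between 2 proximal ends went from 15127 to 5741 (0.380, 0.368 to 0.391), and all loops from 40405 to 20587 (0.510). Ends near neither kind were also away from wild-type CTCF and RAD21 anchors. Loops with both ends near neither went from 2243 to 904 (0.403, 0.373 to 0.436), close to loops between 2 proximal ends. Loops from a proximal end to neither had a ratio of 0.349, and loops from a distant anchor to neither 0.620. Over all listed loops, the 3 kinds with an end at a distant anchor had the 3 highest ratios. Loops with at least 1 distant end made up 37.7% of the 0 h list and 54.5% of the 24 h list.

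Since the 2 lists differ in size, the level of each ratio depends on which loops are counted. Loops with 2 distant ends, with a distant and a proximal end, and with 2 proximal ends kept that order in the sets below, while loops with an end near neither did not keep their place. Among loops with a count of 4 or more the ratios were 1.24 for 2 distant ends, 0.881 for a distant and a proximal end and 0.503 for 2 proximal ends. At a count of 10 or more they were 1.59, 1.20 and 0.782. Loops with both ends near neither had a ratio of 0.622 (0.502 to 0.769) at a count of 4 or more, and went from 11 to 13 (1.18, 0.489 to 2.91) at 10 or more. Loops from a proximal end to neither had 0.500 and 1.12 (0.750 to 1.68), and loops from a distant anchor to neither 0.805 and 1.20. Without chromosome 19 the ratios of the first 3 kinds were 0.923 (0.857 to 0.994), 0.647 and 0.342, and on chromosome 19 alone 1.06, 0.808 and 0.584. Whether loops between distant anchors fell, held or rose in number therefore cannot be told apart from the difference between the libraries. Their standing above loops between 2 proximal ends was seen in each set.

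**Figure D5:**
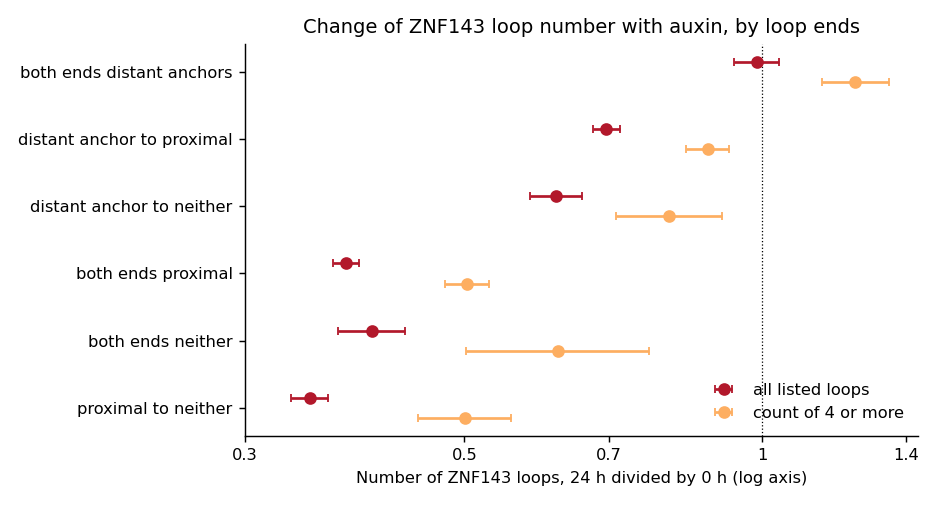
Number of ZNF143 loops at 24 h of auxin divided by the number at 0 h (log axis), by where the 2 loop ends lay, for all listed loops and for those with a count of 4 or more, with 95% intervals from an exact binomial split. Proximal means within 5 kb of a wild-type CTCF or RAD21 anchor. Loops with both ends at distant anchors have the highest ratio in both sets (0.988 and 1.24), and loops with both ends proximal lie at 0.380 and 0.503.

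A comparison among ZNF143 anchors alone gave the same order. Loops between 2 distant anchors had the ratio of 0.988 above, loops between a distant and a proximal ZNF143 anchor 0.741 (0.716 to 0.767) and loops between 2 proximal ZNF143 anchors 0.486 (0.468 to 0.505). The summed counts of these kinds changed by ratios of 1.35, 0.983 and 0.652.

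Among loops between distant anchors the share of long ones grew, as it did among all loops. At spans of 20 to 100 kb they went from 753 to 603 (ratio 0.801), at 100 to 500 kb from 1325 to 1208 (0.912) and at 500 kb or more from 783 to 1015 (1.30, 1.18 to 1.42). All loops had lower ratios that rose with span in the same way, at 0.426, 0.476 and 0.647. Spans of 500 kb or more went from 27.4% to 35.9% of loops between distant anchors and from 27.1% to 34.5% of all loops. The median span of loops between distant anchors was 234 kb at 0 h and 311 kb at 24 h. All loops lengthened too, from 236 to 300 kb, and loops between 2 proximal ends from 213 to 247 kb.

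About as many pairs of distant anchors were joined at 24 h as at 0 h, and many of them were different pairs. The CTCF-AID lists joined 3020 pairs at 0 h and 3054 at 24 h, and 1704 pairs were in both, which was 56.4% of the first and 55.8% of the second. Among pairs of proximal anchors, 11474 at 0 h and 6395 at 24 h, the 3804 in both were 33.2% and 59.5%, and among all pairs of ZNF143 anchors the shares were 39.6% and 56.1%. The share of 24 h pairs already joined at 0 h was thus near that of all pairs, and the share of 0 h pairs kept was the larger for distant anchors. The 1316 pairs joined at 0 h but not 24 h had a median span of 308 kb, and the 1350 joined at 24 h but not 0 h a median of 539 kb. For all pairs of ZNF143 anchors these medians were 272 and 539 kb. All 3 ZNF143 lists, wild type included, shared 846 pairs, with a median span of 140 kb.

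In each of the 5 largest groups the summed count between distant anchors was higher at 24 h than at 0 h, while the number of loops between them changed less. Within the bounds of the 86-anchor group, loops between distant anchors numbered 530 with a summed count of 2600 at 0 h and 560 with 4122 at 24 h, while all loops there went from 1295 to 1116. The 35-anchor group on chromosome 16 had 75 such loops with 435 at 0 h and 93 with 655 at 24 h, while all loops there went from 276 to 200. Loops between distant anchors made up 44.4% of the loops in that region in wild type, 27.2% at 0 h and 46.5% at 24 h. The groups were built from wild-type loops between distant anchors, so the wild-type share is high by that choice and is no baseline. In the 86-anchor group the shares were 49%, 40.9% and 50.2%. In the other 3 groups, taken by size, they were 19.6%, 17.8% and 22.5%, then 48.9%, 35.2% and 38.2%, then 19.6%, 10.5% and 17.7%. From 0 h to 24 h the share went up in all 5 groups, most in the chromosome 16 group. Over the whole lists such loops were 2861 of 40405 at 0 h and 2826 of 20587 at 24 h. Their share rose there too, so the rise was not particular to these groups.

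Wild-type loops themselves were followed by matching both ends. At 0 h, 57.9% of loops between 2 distant anchors, 59.0% of loops with 1 and 60.8% of loops with none were found, near the 59.6% of all loops. At 24 h the shares were 53.3%, 43.5% and 34.5%, against 41.2% of all loops. Of those found at 0 h, 74.2% (71.6 to 76.7), 60.8% (58.9 to 62.5) and 50.0% (48.3 to 51.8) were kept at 24 h, against 58.2% of all. The median ratio of the counts of kept loops was 1.50 (1.41 to 1.50) with 2 distant ends, 1.30 with 1 and 1.00 with none. Restricted to loops with a 0 h count of 20 or more, it was 1.34 (1.16 to 1.42), 1.26 and 1.09 (0.957 to 1.18).

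Loss of distant anchors was most common where the 0 h signal was low, with exceptions. The 5 with the highest 0 h counts and no 24 h anchor were led by chr17:73843326-73845484, with 54 loops and 422 at 0 h. All 54 ended beside it within 5 kb and none overlapped it, and its wild-type signal was 1 loop with a count of 5. The anchor chr16:2254283-2256418 had 7 overlapping loops with 95 at 0 h, 54 in wild type and none at 24 h. The anchor chr17:7475268-7477180 had 10 with 70, and 51 in wild type. The neighbours chr20:30426201-30429891 and chr20:30420794-30422881 had 75 and 69 at 0 h, or 29 and 40 from overlapping loops alone.

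At the other end, the 5 highest 24 h counts included 4 anchors already described and chr16:30938748-30940245, with 715 at 0 h and 1008 at 24 h. Loops overlapping it gave 95 and 158, and it had 26 in wild type at 5.07 kb from CTCF and RAD21 anchors. Another 70 distant anchors (2.19%) were found at 24 h and not at 0 h, against 0.537% of proximal anchors. Neither CTCF-AID list had an anchor at 599 distant anchors (18.7%), against 16.5% of all and 15.4% of proximal anchors, and of the 599, 514 had a single wild-type loop and the strongest had a count of 28.

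Distant anchors appeared in the ZNF143KO lists seldom and at low counts. A ZNF143KO CTCF anchor lay within 5 kb of 463 (14.5%, 13.3 to 15.7), against 56.0% of all wild-type ZNF143 anchors, and a ZNF143KO RAD21 anchor of 325 (10.2%, 9.16 to 11.3), against 48.7%. Either was found at 677 (21.2%), against 64.4% of all, and both at 111 (3.47%), against 40.4% of all. The rule removed anchors near wild-type CTCF and RAD21 loops, so the low shares carry that choice over to another line and are read no further. With loops of count 4 or more only, 52 distant anchors (1.63%) were near an anchor of either list. Counts of 2 made up 62.6% and 60.7% of the ZNF143KO CTCF and RAD21 lists. The share of all ZNF143 anchors at this minimum was not computed, so the 1.63% cannot be called low for distant anchors.

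The CTCF loops with an end at a distant anchor in ZNF143KO cells numbered 560 of 15597, with a mean count of 2.30, a highest count of 8 and 80.4% at a count of 2, against a mean of 2.96 and 62.6% for the whole list. The RAD21 loops numbered 360 of 10804, with a mean count of 2.35, a highest of 14 and 77.8% at a count of 2, against a mean of 3.10 and 60.7%. Of the wild-type ZNF143 loops with a distant end, 125 of 6793 (1.84%) were found as CTCF loops in ZNF143KO cells and 84 (1.24%) as RAD21 loops. Over all wild-type ZNF143 loops the shares were 16.0% and 12.5%. The rule that chose distant anchors bears on this comparison as well. Among all ZNF143KO CTCF anchors, 3785 lay more than 5 kb from every wild-type CTCF and RAD21 anchor, and 437 of those (11.5%) were at a distant ZNF143 anchor. For RAD21 they numbered 2387 and 303 (12.7%).

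The highest ZNF143KO counts at distant anchors were at chr1:1439604-1441656, with a RAD21 loop of 14 and CTCF loops summing to 9. It had a ZNF143 count of 3 in wild type, 10 at 0 h and none at 24 h. The next was chr2:128348486-128349920 with a loop of 8, a wild-type ZNF143 count of 2 and none at 24 h. The other 3 had a loop of 7, at chr1:93810503-93812102, chr3:129117410-129119228 and chr7:100471900-100473527, with wild-type ZNF143 counts of 5, 8 and 29. The first 4 had 1 to 3 wild-type ZNF143 loops, while the anchor on chromosome 7 had 10, then 16 loops with 46 at 0 h and 16 with 63 at 24 h.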

How the data were processed

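The deposited loop lists, 1 per library, give the coordinates of both loop ends and a count per loop made by the authors. Per the submitters' processing notes the reads were processed with HiC-Pro on hg19, and the loop caller is not given in the sources used here. The counts were used as deposited, with no scaling between lists. Ends of the wild-type ZNF143 list were merged where they overlapped by 1 bp, which joined none beyond identical ends. An anchor or loop was found in another list when its ends, extended by 5 kb, overlapped ends there. Starts are printed with 1 added, since the lists count from 0. No fold change was tested, because each group held 1 library.

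Shares carry Wilson 95% intervals, differences Newcombe intervals, ratios of loop numbers an exact binomial split and medians order-statistic intervals. The anchors printed are the 10 with the highest wild-type count, the 5 with the most wild-type loops, the ends of the 10 strongest loops between distant anchors (as loops), the 5 highest 24 h counts, the 5 highest 0 h counts with none at 24 h, the 5 highest ZNF143KO counts and the 3 on each side of the limit. The members and lists were chosen with earlier results of these data known. Promoter overlap and sequence motifs were planned and not analysed, since no hg19 genome or annotation was used here, so anchors are not assigned to genes and no sequence is given. Alternatives were another distance, count minimum and matching extension, and 2 chosen after seeing the data. Matching and intervals were tested on simulated data. Python 3.11.15, numpy 2.4.6, scipy 1.17.1, networkx 3.6.1 and matplotlib 3.10.9 were used.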

Additional observations from a re-analysis of the deposited data

How the results depend on the processing

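Each result rests on 1 library per group, and the deposited lists begin at a count of 2, so anchors missing from a list may have been below that limit. Over 10 results and 6 settings, 16 of 51 recomputed values moved less than their interval, 34 moved further and 1 turned its direction, and 3 had an interval that included no change. The cause of each change was not tested, beyond the fewer anchors or loops that a setting leaves. No paired analysis was possible because each group held 1 library.

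With a limit of 20 kb in place of 5 kb, the distant share of ZNF143 anchors was 20.3%, and the ratio of loops per anchor turned to 0.974. Of loops with a distant end, 76.4% joined another ZNF143 anchor that was not distant (71.0% as reported), which at this limit includes anchors 5 to 20 kb from CTCF and RAD21. Distant minus proximal anchors was -7.12 points at 0 h, 8.82 at 24 h and 14.4 for 0 h anchors kept at 24 h. The ratio of loop number at distant anchors (24 h over 0 h) was 0.771, against 0.555 at the other ZNF143 anchors. With the 5 kb limit these ratios were 0.737 and 0.525. Of wild-type loops with a distant end, 44.4% were found at 24 h, and 19.2% of distant anchors lay at a ZNF143KO anchor.

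With wild-type ZNF143 loops of count 3 or more, the ratio of loops per anchor was 1.25, the difference at 0 h -1.12 points (-3.05 to 0.712), that at 24 h 17.3 points, the loop number ratio 0.778, the share of loops found at 24 h 60.2%, the share at a ZNF143KO anchor 19.01% and the ratio of spans 1.08. With no extension in matching, the differences were -2.70 points at 0 h, 18.4 at 24 h and 23.4 for kept anchors, with 41.6% of loops found at 24 h and 16.5% of distant anchors at a ZNF143KO anchor. With a count of 4 or more in the lists matched to, the difference at 0 h was -7.72 points and for kept anchors 21.8, the loop number ratio 0.958, the share of loops found at 24 h 35.4% and the share at a ZNF143KO anchor 1.63%.

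The remaining settings were chosen after seeing the data. Without chromosome 19, the distant share was 31.8%, the ratio of loops per anchor 1.08, the share of loops with a distant end that joined a proximal anchor 73.0%, the loop number ratio 0.681 and the share of loops found at 24 h 39.1%. With distant anchors also required to be away from both ZNF143KO lists, the distant share was 26.0%. Of loops with a distant end, 77.1% joined a ZNF143 anchor that was not distant. The difference at 24 h was 16.1 points, and the loop number ratio 0.760, against 0.537 at the other anchors. Promoter and motif results, and other settings for them, were not computed.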
